A study of Oryza sativa with 6 samples.

Results

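The 94 predicted hairpin miRNAs of rice leaf are small RNAs that were found in these reads and carry no miRBase name. They were taken as all entries whose name starts with PC-, which made 94 of the 479 miRNA names in the table, and each of the 94 had a sequence of its own. The other 385 names follow miRBase, the public catalogue of miRNAs. The small RNA came from leaves of CA21, a non-transgenic, glyphosate-tolerant rice germplasm bred by mutagenesis of Zhejing30 with radiation and ethyl methane sulfonate followed by crossing. The 3 GLY libraries came from seedlings sprayed at the third-leaf stage with glyphosate, a herbicide that blocks the shikimate pathway, at 2 mg per ml, and the 3 CK libraries from unsprayed CA21 plants. Both groups are therefore 1 tolerant germplasm, and it is not stated whether replicate libraries are separate plants, so a p-value here covers the variation among these libraries and may be technical.

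Plant miRNAs are cut in pairs from the stem of a folded transcript, and the name records whether a sequence lies on the 5′ arm (5p) or the 3′ arm (3p) of that hairpin. The enzyme DCL1 releases the canonical size class, while DCL3 cuts longer small RNAs, among them the siRNAs that guide DNA methylation at transposons and also a class of long miRNAs known from rice. The first base helps to decide which Argonaute protein takes up a small RNA: AGO1 favours U, and the AGO4 group, which works with the long class, favours A. In the table U is written as T.

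The sequences of the members with the highest mean value over the 6 libraries are shown first, because they carried most of the signal. They are given 5′ to 3′, with bases 2 to 8 (the seed) in capitals.
PC-5p-550_3155: aAAATGCAtggagaattatggtgt
PC-5p-7586_652: tCAGTGGTatcatggtatcagagc
PC-5p-1509_1252: aAAATGCAtggagaattttggtgt
PC-3p-12124_523: tGGCTGCAtcccgttctcctc
PC-3p-21243_374: aTTTAGTTgaattagagtgggtca
PC-5p-13602_493: aCAAAATGcatggagaattatggt
PC-5p-9790_581: aAATGCATggagaattttggtgtc
PC-5p-42207_188: tTCCGTCAgccttgatcgctat
PC-3p-40698_198: aATAGCGAtcaaggcggacgg
PC-3p-38949_210: aACGGCGAtggtatttctgggaca
Of these 10, 7 were 24 nt long, and PC-5p-550_3155, PC-5p-1509_1252, PC-5p-13602_493 and PC-5p-9790_581 were shifted or near-identical forms of 1 sequence.

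The predicted miRNAs were mostly long and mostly began with A. A length of 24 nt was found for 50 of the 94 (53.2%), 21 nt for 22 and 22 nt for 9. The long class of 23 to 25 nt held 58 members (61.7%), against 29.1% of the miRBase-named miRNAs, and the canonical class of 20 to 22 nt held 34 (36.2%), against 67.8%. The remaining 2 members were 18 and 19 nt long. A was the first base of 65 members (69.1%), T of 14, G of 9 and C of 6, whereas among the named miRNAs T led with 44.7% and A followed with 31.9%. Part of this contrast lay in the mix of lengths. Within the long class A began 45 of 58 predicted (77.6%) and 53.6% of named miRNAs, and within the canonical class 20 of 34 predicted (58.8%) and 23.8% of named miRNAs. At 21 nt the count was 12 with A and 8 with T. The arms were nearly even, with 49 names on 5p and 45 on 3p, but the long class made up 34 of the 49 on 5p (69.4%) and 24 of the 45 on 3p (53.3%). The median GC content was 41.7% in the predicted and 50.0% in the named miRNAs. Sequences that overlap are not independent, so these shares are descriptions without a test.

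**Figure D1:**
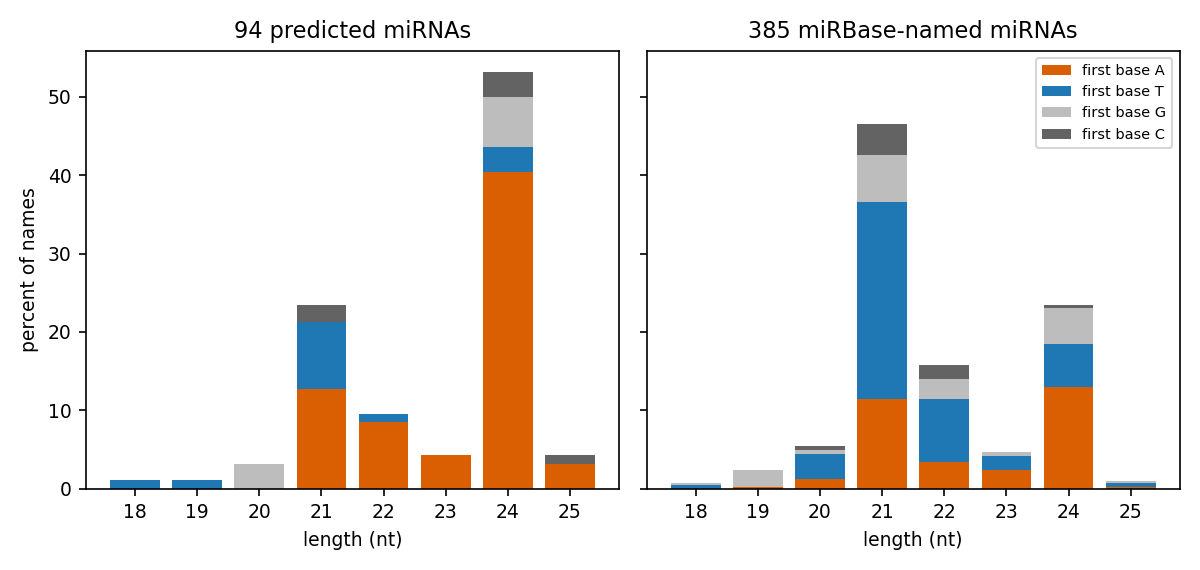
Percent of names (vertical axis) at each length in nt (horizontal axis) for the 94 predicted miRNAs (left) and the 385 miRBase-named miRNAs (right), with each bar divided by first base. The tallest bar lies at 24 nt on the left (53.2%) and at 21 nt on the right (46.5%).

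Values are normalized read counts as deposited, and their scaling between libraries is not stated. Where 3 values follow CK or GLY, they are those of replicates 1, 2 and 3 in that order. The steps between low values gave an estimate of 154436, 168908 and 304753 miRNA reads in CK and of 176515, 118662 and 97902 in GLY. One library, GLY 2, was unlike the rest of its group. Over the 251 miRNAs that passed the filter described below, log2 values correlated at 0.939 to 0.972 among CK libraries and at 0.928 between GLY 1 and GLY 3, but GLY 2 correlated at 0.640 with GLY 1 and at 0.557 with GLY 3. The names of the reproductive phasiRNA trigger families miR2118 and miR2275, markers of another tissue, summed to 0.0604 to 0.0944% of the signal in CK, with 4 of 6 names above 0 in each library. In GLY 1, GLY 2 and GLY 3 they took 0.221%, 0.0261% and 0.347%, with 1, 1 and 3 names above 0. Families that match rRNA or tRNA fragments (6 names, 4 or 5 above 0 in each library) took 0.0768 to 0.214% in CK and 0.611%, 0.0969% and 1.11% in the GLY libraries. Both lists were thus highest in GLY 1 and GLY 3, and GLY 2 was below or within the CK range. The part of these differences in the results below was not tested.

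Predicted miRNAs took a small share of the signal, which was highest in GLY 2. Their summed value was 1815, 1334 and 1321 in CK and 1001, 9021 and 727 in GLY. As a share of all miRNA signal this was 1.33%, 0.901% and 0.802% in CK, and 0.645%, 5.09% and 0.432% in GLY. Both GLY 1 and GLY 3 thus lay below every CK library, and GLY 2 lay 4.97 times above the highest other library in summed value. The mean share was 1.01% ± 0.283 (SD, n = 3) in CK and 2.06% ± 2.63 (SD, n = 3) in GLY, and 0.538% for the GLY libraries without GLY 2. The difference between the group means was smaller than the spread within GLY and turned from 1.04 to -0.47 percentage points when GLY 2 was left out.

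The excess in GLY 2 lay in the long members. Predicted miRNAs of 23 to 25 nt summed to 1194, 864 and 640.0 in CK and to 483, 8348 and 286 in GLY. The GLY 2 value was 6.99 times the highest of the others. Those of 20 to 22 nt summed to 589, 460.3 and 659 in CK and 492, 659 and 422 in GLY, so that the groups overlapped and GLY 2 was level with CK 3. The long class was 65.8%, 64.8% and 48.5% of the predicted signal in CK, and 48.3%, 92.5% and 39.3% in GLY. The named miRNAs of 23 to 25 nt followed the same order of libraries at the top, with 20.9%, 19.7% and 9.37% of all signal in CK and 13.1%, 36.7% and 11.5% in GLY. By arm, the 5p names summed to 958, 674 and 617 in CK and 526, 6959 and 361 in GLY, and the 3p names to 857, 660.2 and 704 in CK and 475, 2062 and 366 in GLY. GLY 2 was thus the highest library on both arms, and GLY 1 and GLY 3 were below every CK library on both.

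**Figure D2:**
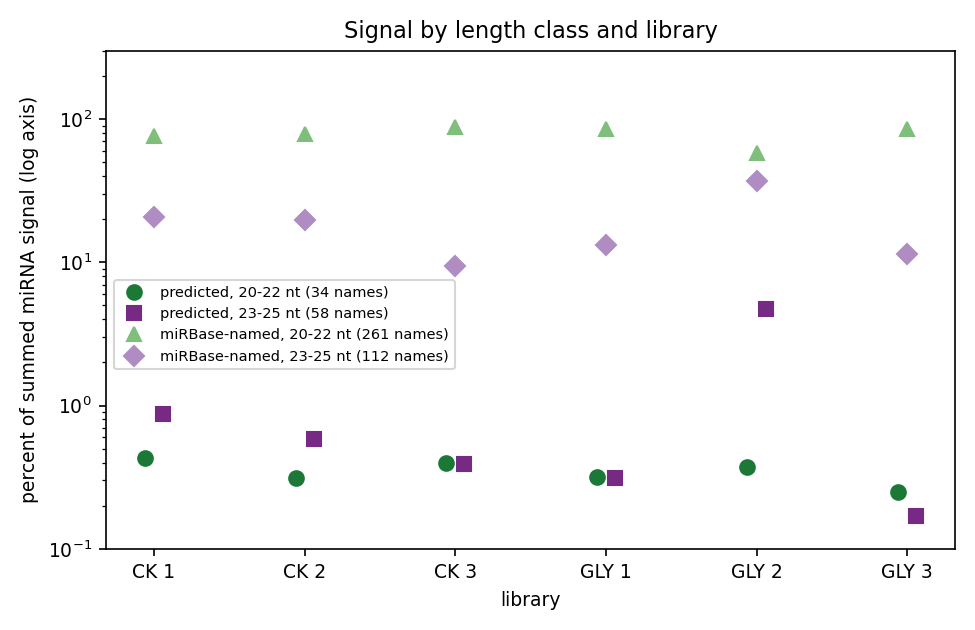
Percent of the summed miRNA signal of each library (vertical log axis) in predicted and miRBase-named miRNAs of 20 to 22 nt and of 23 to 25 nt, for the 6 libraries (horizontal axis), 1 point per class and library. Predicted miRNAs of 23 to 25 nt reach 4.71% in GLY 2 and lie between 0.170% and 0.878% in the other libraries.

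Detection showed the same split by length. The number of predicted miRNAs above 0 was 60, 51 and 58 of 94 in CK and 47, 81 and 32 in GLY. All 58 members of 23 to 25 nt were above 0 in GLY 2, against 35, 28 and 29 in the CK libraries, 19 in GLY 1 and 11 in GLY 3. Of the 34 members of 20 to 22 nt, 22 were above 0 in GLY 2, within the range of 20 to 27 over the other libraries. The reads estimated above are those of listed miRNAs and not the depth of the whole library. In valid reads as given by the paper, every GLY library was below every CK library, and GLY 3 was the lowest. In unique valid reads GLY 2 was close to CK 2, while GLY 1 and GLY 3 were well below every CK library. The part of sequencing depth in these counts was not tested. The lowest value above 0 of a predicted miRNA was worth 3 to 4 estimated reads in every library, so a value listed at 0 may hide a few reads.

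Only 23 members (24.5%) were above 0 in all 6 libraries, against 46.5% of the named miRNAs. A further 19 were above 0 in GLY 2 alone, and no predicted miRNA was above 0 in any other single library alone. Of those 19, 16 were long, out of 58 long members. Among named miRNAs 20 of 385 were above 0 in GLY 2 alone, and 19 of these were long, out of 112 long names. Part of the contrast between the lists thus lay in their mix of lengths. In both GLY 1 and GLY 3, 47 members were listed at 0, of which 39 were of 23 to 25 nt. Of the 385 named miRNAs 98 were so listed, 49 of them of 23 to 25 nt. Every predicted miRNA reached 10 in 1 or more libraries, while 74 of the 385 named miRNAs stayed under 10 throughout. For 38 members GLY 2 was the only library at 10 or more, as it was for 35 of the 385 named miRNAs. Whether the prediction step asked for such a value is not stated, and its part in the number of members seen in GLY 2 alone was not tested.

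**Figure D3:**
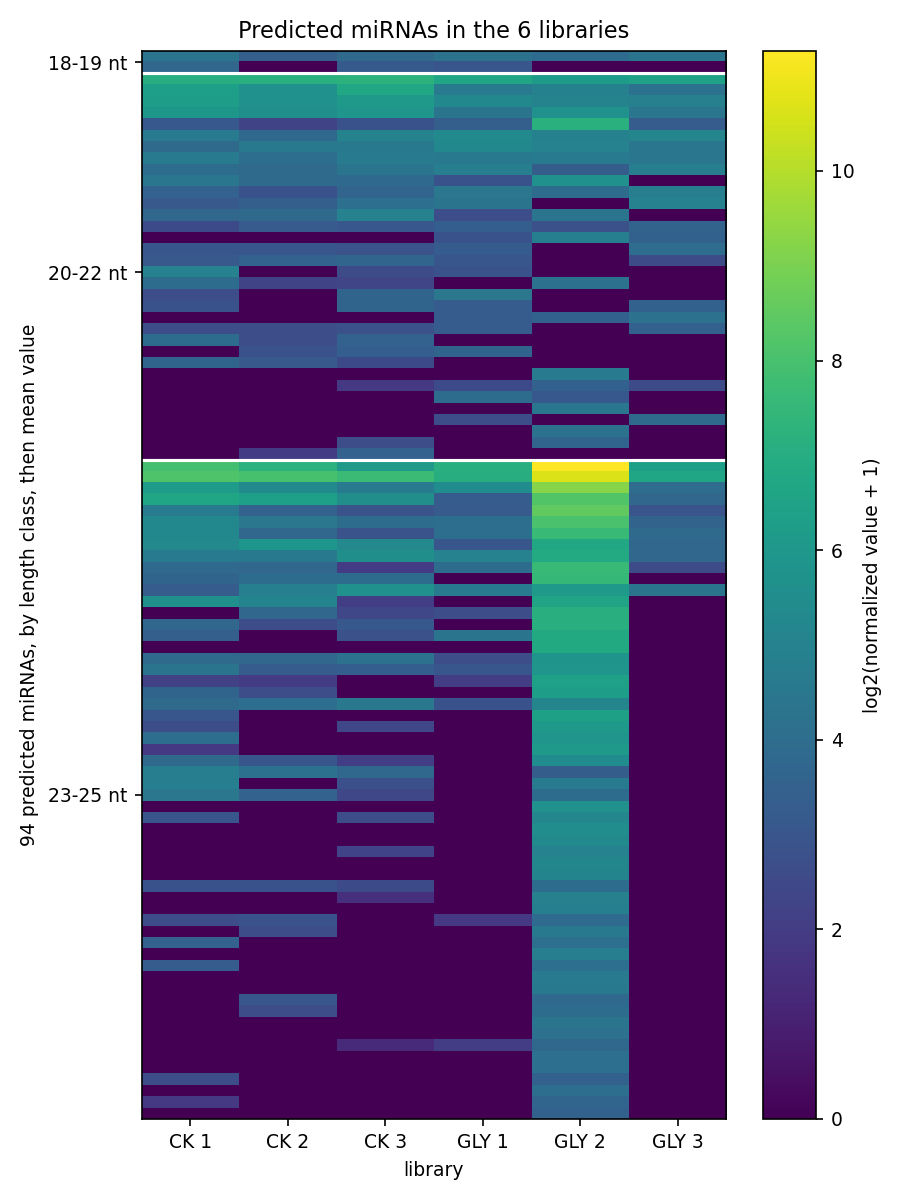
log2(normalized value + 1), shown by colour, of the 94 predicted miRNAs (rows, by length class and then by mean value) in the 6 libraries (columns). In GLY 2 all 58 rows of 23 to 25 nt are above 0, against 11 in GLY 3, while the rows of 20 to 22 nt show no such column.

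GLY 2 was the highest library for 65 of the 94 members (69.1%), 55 of 58 in the long class and 10 of 34 in the canonical class. Among named miRNAs it was the highest for 92 of 112 long and 37 of 261 canonical names. The 11 long members above 0 in all libraries had a GLY 2 value of 10.2 times the CK mean in the median (range 2.26 to 26.2), and the mean of GLY 1 and GLY 3 was below the CK mean for 10 of these 11. For the 11 canonical members above 0 throughout, the median ratio of GLY 2 to the CK mean was 0.929, although 1 of them, PC-5p-46207_163, reached 24.2. That member shares the core sequence of the leading long group.

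The most abundant group of members shared the letters ATGCATGG, which were searched after the leading sequences had been seen. They occurred on the given strand in 12 predicted miRNAs (12.8%) and in 0 of 385 named miRNAs, and the reverse complement CCATGCAT occurred in 2 more predicted and in 0 named miRNAs. The forms that show how the members shift along 1 sequence are given here, again with bases 2 to 8 in capitals.
PC-5p-46207_163: aAAATGCAtggagaattatggt
PC-5p-41768_191: aAAATGCAtggagaattatggtg
PC-5p-76732_46: aAAATGCAtggagaattatggtgg
PC-5p-111880_9: aAAATGCAtggagaattttggtgtt
PC-5p-72793_55: aAAATGCAtggaaaattttggtg
PC-5p-71463_58: aTGACAGAatacaaaatgcatgga
PC-3p-85951_30: aCCATAATtccccatgcattttgt
PC-3p-79829_40: aTTCCCCAtgcattttgtattctg
The seed AAATGCA was common to 8 of the 12, no named miRNA had it, and no other seed was shared by as many members. The last pair of sequences, both on 3p, read through the same stretch in the other direction.

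PC-5p-550_3155 led this group. Its value was 238, 145 and 65.7 in CK and 132, 2465 and 81.7 in GLY. PC-5p-1509_1252 had 71.8, 41.2 and 24.9 in CK and 44.0, 592 and 15.5 in GLY. In both, GLY 2 was the highest library, at 10.3 and 8.24 times the next, and GLY 1 lay within the CK range. PC-5p-13602_493 had 24.2, 10.5 and 6.49 in CK and 8.35, 360.0 and 6.88 in GLY. PC-5p-9790_581 had 37.4, 21.0 and 14.6 in CK and 15.8, 258 and 11.2 in GLY. These shifted forms therefore showed the same single high library. PC-5p-41768_191 had 13.2, 12.3 and 2.97 in CK and 15.0, 190.5 and 5.16 in GLY. PC-5p-46207_163, the 22-nt form, had 7.49, 3.95 and 6.22 in CK and 9.67, 142.7 and 8.60 in GLY. GLY 2 was the highest library for each of the 12 members.

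Summed over the 12 members, the value was 408, 242 and 132 in CK and 231, 4306 and 129 in GLY, and GLY 2 was 10.5 times the highest other library. The group made up 22.5%, 18.2% and 9.99% of predicted signal in CK, and 23.1%, 47.7% and 17.8% in GLY. The 48 long members outside the group still summed to 4205 in GLY 2 and to 165 to 793 elsewhere, so that GLY 2 was the highest library for them as well. Near-identical forms can share reads, so the values of single forms are less certain than their sum.

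PC-5p-7586_652, the second most abundant member, ended in TGGTATCAGAGC. As background, plant LTR retrotransposons begin reverse transcription at a primer binding site with such letters, which are complementary to the 3′ end of the initiator methionine tRNA. The letters occurred on the given strand in 1 of 94 predicted and 2 of 385 named miRNAs (0.520%), and as the reverse complement GCTCTGATACCA in 0 predicted and 3 named. Both motifs were searched after the sequences had been seen, and a match is no evidence of origin. Its value was 289, 256 and 202 in CK and 129, 1609 and 96.4 in GLY. Both GLY 1 and GLY 3 were below every CK library, while GLY 2 was 5.57 times the highest other library.

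In PC-3p-21243_374, PC-3p-31301_269 and PC-3p-81410_37, too, GLY 2 lay above every CK library and GLY 1 and GLY 3 lay below every CK library. PC-3p-21243_374 had 98.7, 80.7 and 47.0 in CK and 8.79, 291 and 12.0 in GLY. PC-3p-31301_269 had 38.8, 58.7 and 38.9 in CK and 7.04, 106 and 12.0 in GLY. PC-3p-81410_37 had 11.5, 14.9 and 14.6 in CK, was listed at 0 in GLY 1 and GLY 3, and had 181 in GLY 2. Among the 30 members that could be tested, 8 had GLY 2 above every CK library and both GLY 1 and GLY 3 below every CK library. The same pattern was seen in 49 of the 221 tested named miRNAs, so it was not particular to the predicted ones. PC-3p-38949_210 was different, with 37.0, 12.3 and 6.49 in CK and 15.8, 189.7 and 13.8 in GLY, so that GLY 1 and GLY 3 lay within the CK range.

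**Figure D4:**
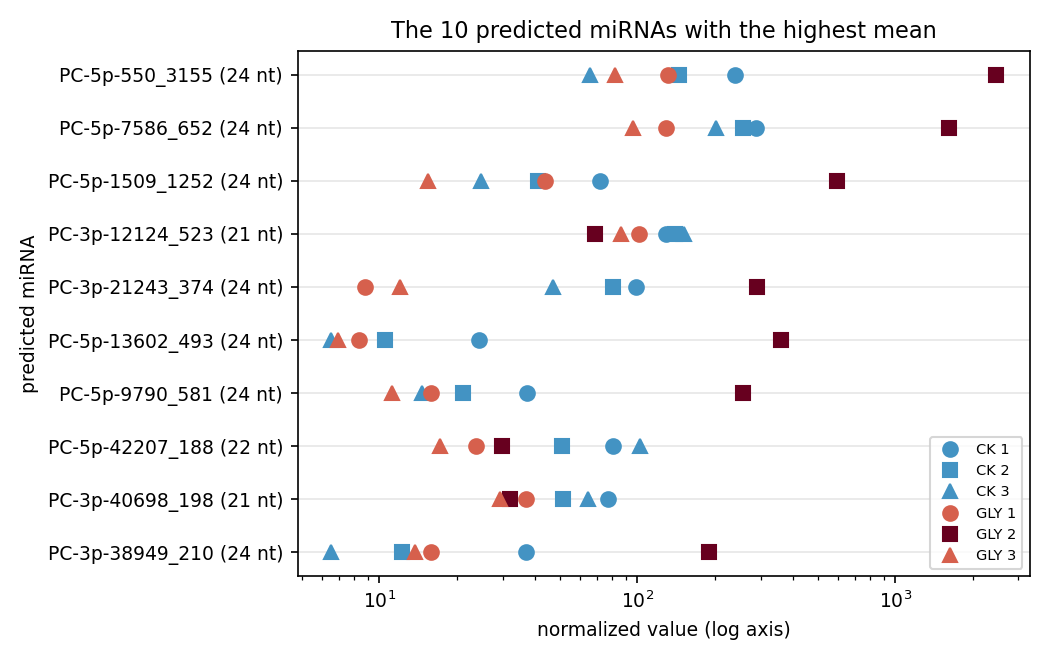
Normalized value (horizontal log axis) of the 10 predicted miRNAs with the highest mean, 1 point per library, with the length in nt beside each name. GLY 2 is the highest library for the 7 members of 24 nt and lies below every CK library for the 3 of 21 or 22 nt.

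The spray was compared with no spray by fitting log2(value + 1) with limma over all miRNAs that reached 10 in 3 or more libraries, with Benjamini-Hochberg adjustment and a call at an adjusted p under 0.05. Of 251 miRNAs tested, 28 were called (11.2%), 19 higher (7.57%) and 9 lower (3.59%) in GLY. That count fell to 2 when either CK 1 or CK 2 was left out, to 9 for CK 3 and to 14 for GLY 3, and leaving out GLY 2 raised it to 125. The filter left 30 of the 94 predicted miRNAs, 17 of 23 to 25 nt, 12 of 20 to 22 nt and 1 of 18 nt. Of the other 64, 48 reached a value of 10 in 1 library and 16 in 2 libraries.

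None of the 30 tested predicted miRNAs was called in either direction, where 11.2% of all tested miRNAs were, 7.57% higher and 3.59% lower. At an unadjusted p under 0.05 limma gave 2 of 30, against 27.1% of all tested miRNAs. The median log2 fold change of the 30 was -0.16, beside -0.46 over all 251, with -0.58 for the canonical and 0.14 for the long members. Tested named miRNAs had medians of -0.38 in the canonical and -0.67 in the long class. The values of GLY and CK did not overlap for 4 members that were lower and 1 that was higher in GLY, where 21.9% and 13.9% of all tested miRNAs did so. Over all miRNAs 35.9% did not overlap in either direction, so the 5 of 30 predicted miRNAs were no more than this background.

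The 5 tested members whose groups did not overlap were mostly canonical in length. For the 4 that were lower in GLY, GLY 2 could by definition not be the highest library. For the 1 that was higher, the highest library was GLY 3. A further 4 members that were higher and 3 that were lower in GLY without overlap did not pass the filter. The same count was not made for the named miRNAs, so no background stands beside it. PC-3p-12124_523, of 21 nt, had 129, 139 and 152 in CK and 101, 68.7 and 86.0 in GLY, which gave 140.0 ± 11.6 against 85.3 ± 16.2 (SD, n = 3). Every GLY library was below every CK library, but limma's log2 fold change of -0.72 ± 0.32 (SE) had an adjusted p of 0.199. It shares its seed with 1 named miRNA, a variant of osa-miR812v, of a family known from transposon sequences in rice. PC-3p-83009_35, of 24 nt, had 27.3, 17.5 and 13.0 in CK, 8.96 in GLY 2, and was listed at 0 in GLY 1 and GLY 3. Its log2 fold change was -3.17 ± 1.14 (SE), with an unadjusted limma p of 0.0313 and an adjusted p of 0.151. It reached 10 in CK libraries alone, so it passed the filter only through the group in which it was high. Because of the values at 0 the fold change depended on the pseudocount, with -3.83 when 0.5 was added and -1.74 when 5 was added. PC-5p-61144_91 had 10.6, 6.14 and 11.9 in CK and 21.1, 14.9 and 27.5 in GLY. It was the one tested member that was higher in GLY without overlap, at 1.08 ± 0.61 (SE) on the log2 scale, for which limma gave an adjusted p of 0.329.

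The other tested members without overlap were 2 sequences that can pair with each other. PC-5p-42207_188 had 80.2, 50.8 and 103 in CK and 23.7, 29.9 and 17.2 in GLY (77.9 ± 26.0 against 23.6 ± 6.34, SD, n = 3). Its log2 fold change of -1.66 ± 0.47 (SE) had the smallest p among the predicted miRNAs, with 0.0119 before and 0.079 after adjustment in limma. PC-3p-40698_198 had 76.7, 51.3 and 64.6 in CK and 36.9, 32.1 and 29.2 in GLY, and its log2 fold change of -0.94 ± 0.39 (SE) had an adjusted limma p of 0.180. Over 20 aligned positions 19 were paired, G with T included. PC-3p-45844_165, which is the same 3p sequence with 1 more base at its 3′ end, had 61.7, 47.8 and 57.0 in CK and 19.3, 51.5 and 20.6 in GLY. Here GLY 2 lay inside the CK range, and 20 of 21 positions were paired with the 5p sequence. The sequences related to this pair are given here.
PC-3p-45844_165: aATAGCGAtcaaggcggacgga
PC-5p-83972_33: gTCCGCCTtgattgctattgaccc
PC-3p-81410_37: gATCAAGGcgaatggaaaacgatc
PC-5p-83972_33 was also complementary to both 3p forms, over 19 of 19 positions, but it was highest in GLY 2, with 14.1, 7.01 and 3.24 in CK, 43.3 in GLY 2 and a listing at 0 in GLY 1 and GLY 3. Whether these sequences come from 1 hairpin was not tested, since no precursor or genome position was used here.

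When GLY 2 was left out, the same limma fit on the same 251 miRNAs called 13 predicted miRNAs, all lower in GLY, where 34.3% of all tested miRNAs were called lower, 15.5% higher and 49.8% in all. At an unadjusted p under 0.05 limma gave 14 of the 30, against 58.6% of all. The remaining GLY group then had 2 libraries. With any other library left out, no predicted miRNA was called. Of the 13, 9 were of 23 to 25 nt and 4 of 20 to 22 nt, and for 8 of them GLY 2 was the highest of all libraries. Many of the 13 were under 10 in both GLY 1 and GLY 3, among them 4 listed at 0 in both. These passed the filter only through CK libraries or through GLY 2, which was then left out. Their low GLY values were thus part of how they entered, and such calls are no support for a difference. The median log2 fold change of the 30 became -0.69, beside -0.63 over all tested miRNAs, so the pooled median stood close to the background. Within the long class it was -1.14 for predicted and -2.05 for named miRNAs. Within the canonical class it was -0.25 and -0.16.

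Among the long members in that fit, PC-3p-81410_37 and PC-3p-83009_35 were listed at 0 in both GLY 1 and GLY 3. No fold is therefore given for them, and their adjusted limma p was 0.000628 and 0.000786. Of the libraries in that fit, both members reached 10 only in CK, and values listed at 0 have no spread. These p are therefore no support for a difference. PC-3p-21243_374 had a log2 fold change of -2.69 with an adjusted limma p of 0.0032. For PC-3p-81410_37 and PC-3p-21243_374 GLY 2 was the highest library. PC-5p-7586_652 turned from 0.14 with GLY 2 to -1.14 without it, with an adjusted limma p of 0.0193. The canonical PC-5p-42207_188 and PC-3p-45844_165 had -1.84 and -1.42, with adjusted limma p of 0.0118 and 0.0122. PC-5p-42207_188 did not depend on GLY 2 for its direction, since GLY 2 was below every CK library as well. Members with the shared core did not pass without GLY 2 either, as with PC-5p-550_3155, which changed from 1.18 to -0.34 with an adjusted limma p of 0.624.

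**Figure D5:**
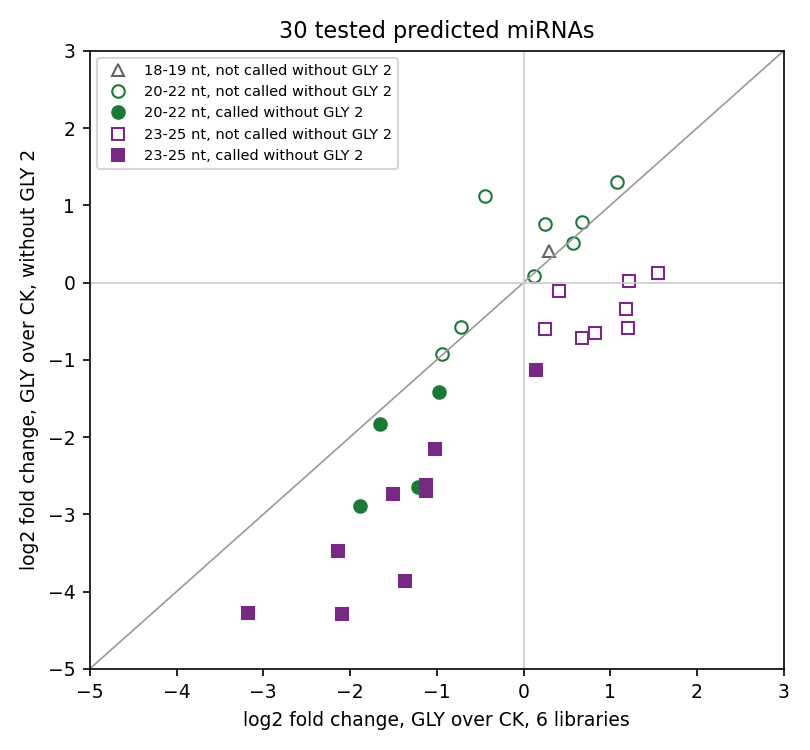
limma log2 fold change of GLY over CK for the 30 tested predicted miRNAs with all 6 libraries (horizontal axis) and without GLY 2 (vertical axis), 1 point per miRNA, with filled points for the 13 called without GLY 2 and a grey line of equal values. The points of 23 to 25 nt lie below the line, with medians of 0.14 and -1.14. The fitted value without GLY 2 depends on the pseudocount for the members at 0 in GLY 3, of which 4 are at 0 in GLY 1 as well.

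Members above 0 in GLY libraries alone numbered 23, of which 19 were those of GLY 2 alone and 4 were above 0 in GLY 1 or GLY 3. Among the 385 named miRNAs the same 2 counts were 20 and 28. A further 3 members were above 0 in CK libraries alone, a count that was not made for the named miRNAs. Of the 26 members above 0 in 1 group alone, 4 were above 0 in all 3 libraries of their group. Among the 385 named miRNAs, 5 were above 0 in every GLY library and listed at 0 in every CK library, and 10 showed the reverse. The pattern was thus not particular to the predicted miRNAs. PC-3p-88098_27 was listed at 0 in every CK library and had 8.79, 10.5 and 17.2 in GLY. PC-5p-106058_13 was also listed at 0 in CK and had 6.16, 28.4 and 10.3 in GLY. The reverse was seen for PC-5p-93196_22, with 15.0, 5.26 and 10.8 in CK, and for PC-3p-85077_31, with 11.5, 7.89 and 4.86, both listed at 0 in every GLY library. These 4 members were all of 21 nt and began with T. They are printed here because they were above 0 in every library of 1 group and listed at 0 in every library of the other.
PC-3p-88098_27: tTGCTATGttttgggacggag
PC-5p-106058_13: tTGGCGCCgtggtccaacata
PC-5p-93196_22: tCATTCGTgatatgttgtgat
PC-3p-85077_31: tAGGAGGAcggcgccagagag
None of the 4 passed the filter on the values as deposited, so none was tested there. Under median ratio scaling PC-3p-88098_27 passed it and was called higher in GLY, with an adjusted limma p of 0.0146. Listed at 0 in CK, it could pass only through the GLY libraries where it was high, so this call is no support for a difference. Without a filter its adjusted limma p was 0.054. Values above 0 of the 4 members were low, with 27 estimated reads over all libraries for PC-3p-88098_27.

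The highest of the members above 0 in GLY 2 alone was PC-3p-83997_33, of 24 nt, with a value of 115. It was followed by PC-5p-83317_34 with 50.8, PC-5p-95372_20 with 44.8, PC-3p-94929_20 with 40.3 and PC-3p-85951_30 with 35.1. All 5 were 24 nt long, and PC-3p-85951_30 is one of the reverse reads of the shared core described above. PC-3p-94929_20 pairs over 21 of 21 positions with PC-5p-71055_59, a member that was not confined to GLY 2.

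Many of the 94 names were not independent sequences. Overlaps of at least 16 nt without mismatch joined 26 members in 10 groups, the largest with 5 members. Allowing up to 2 mismatches, a search added after the sequences had been seen, joined 40 members in 12 groups, the largest with 13, and left 54 alone. The 94 members had 82 distinct seeds, of which 6 were shared by 18 members. A seed was shared with a named miRNA by 9 members, among them PC-5p-106625_12 with forms of miR164a and PC-5p-71463_58 with a form of osa-miR156a, but these matched over the seed and not over 16 nt.

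Direct overlap with a named miRNA was found for 3 members. PC-5p-93589_21 was a 3′-extended form of osa-miR1429-5p with 1 more base at its 5′ end. PC-3p-38949_210 matched a miR5810 3′-arm entry over 24 nt with 1 mismatch, and PC-3p-93371_22 matched that entry over 21 nt with 1 mismatch. Their sequences are shown beside the entries they matched.
PC-5p-93589_21: cGTAATATactaatccgtgcatcca
osa-miR1429-5p_R+3: gTAATATActaatccgtgcatcca
PC-3p-38949_210: aACGGCGAtggtatttctgggaca
osa-MIR5810-p3_2ss3TC17AC: aACGGCGAtggcatttctgggaca
PC-5p-93589_21 had a value of 5.26 in CK 2 and 22.4 in GLY 2 and was listed at 0 elsewhere.

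Complementary 5p and 3p names were searched with at least 16 aligned positions and at least 80% of them paired, G with T included. This gave 50 pairs among 47 members, 28 on 5p and 19 on 3p, since 1 sequence can pair with several others. PC-5p-71055_59 and PC-3p-78542_42 paired over 24 of 24 positions.
PC-5p-71055_59: gCCGGGAAccaatttacttatgat
PC-3p-78542_42: aTCATGAGtaaattggttcccggt
As background, the products of a Dicer cut carry 3′ ends that stand out by a pair of bases on both strands. Overhangs of 2 nt at both ends were found in 3 of the 50 pairs, each made of PC-3p-85951_30 with PC-5p-550_3155, PC-5p-1509_1252 or PC-5p-76732_46. In the first, 21 of 22 positions were paired, and the 5p sequence had 2465 in GLY 2 where the 3p sequence had 35.1. PC-3p-85951_30 was listed at 0 in the other 5 libraries, in which PC-5p-550_3155 had 65.7 to 238. The pair PC-5p-71055_59 and PC-3p-78542_42 had no overhang. A match between the letters does not show that the sequences come from 1 hairpin.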

How the data were processed

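Small RNA libraries (TruSeq kit) were read single-end on a HiSeq. The authors trimmed adaptors, discarded reads under 18 nt and other RNA classes, and identified miRNAs with ACGT101-miR (version not stated) against miRBase 20. The deposited values are a signal per miRNA and library, called normalized counts in the file header, and are not whole. Of 582 rows, 103 exact repeats were dropped. Between 78.5% and 83.5% of values under 60 were whole multiples of 1 read within 0.01, too few for a count model, so limma 3.58.1 in R 4.3.3 (trend and robust moderation) was fitted to log2(value + 1), which understates changes of low values. Fits were tried on simulated data with the same spread in every miRNA and library and no outlying library. These data differ in that, so the trial does not vouch for the fit here. Figures were drawn with matplotlib 3.10.9.

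The miRNAs named are those called, the 10 highest by mean, the 5 with the smallest p in each direction, those in 1 group or in GLY 2 alone (5 highest each) and related sequences. The members and lists were chosen with earlier results of these data known. The members called without GLY 2 alone and the motifs were named after their values were seen. No genome was used, so no positions are given. The meaning of the numbers in a PC- name is not stated. Pseudocounts, filters, scalings, moderation, a replicate block and leaving out each library were tried.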

Additional observations from a re-analysis of the deposited data

How the results depend on the processing

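The median log2 fold change over all tested miRNAs moved with the scaling, from -0.46 as deposited to -0.26 with median ratio scaling and -0.78 with upper quartile scaling. The median of the tested predicted miRNAs lay above it in every setting except without GLY 2, and its own sign was not stable, with 0.32 under median ratio scaling, -0.41 under upper quartile scaling, 0.37 without a filter and a leave-one-out range of -0.69 to 0.19. Calls over all miRNAs went from 28 to 14 with upper quartile scaling and to between 2 and 125 with 1 library left out. No predicted miRNA was called under any alternative except without GLY 2 (leave-one-out range 0 to 13) and under median ratio scaling, where PC-3p-88098_27 passed the filter and was called (1 call). That member could pass only through the GLY libraries in which it was high. Whether same-numbered libraries were paired is not stated. The deviations of same-numbered libraries from their group means correlated at -0.388, 0.0936 and 0.467. These values cannot decide it, since each mean is over 3 libraries and includes the library itself. With the replicate block 6 miRNAs and no predicted miRNA were called, and none of the 30 had an unadjusted p under 0.05.

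PC-5p-7586_652 changed sign with equal library sums (-0.016) and with upper quartile scaling (-0.15). With 1 library left out, log2 fold changes ranged from -0.34 to 2.11 for PC-5p-550_3155, from -0.66 to 1.92 for PC-5p-1509_1252, from -1.14 to 0.89 for PC-5p-7586_652, from -0.72 to 1.48 for PC-5p-9790_581 and from -0.59 to 2.16 for PC-5p-13602_493. The lowest value of each was without GLY 2. The GLY minus CK difference in summed value was 2093, that in share ranged from -0.47 to 1.85 percentage points with 1 library left out, and that in number of members above 0 from -16.8 to 7.67. Counted per member and setting, over only some of the 30 tested members, 224 of the other values kept their direction and side of the threshold. A further 4 passed it without GLY 2, whereas over all 30 tested members 13 were called in that setting. The values listed at 0, which may hide a few reads, limit what can be said of low members, and the cause of the difference between GLY 2 and the other GLY libraries was not tested.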
